A study of Mus musculus with 5 samples.

Results

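The bone morphogenetic protein (BMP) genes followed here are 4 ligands (Bmp2, Bmp4, Bmp5 and Bmp7), the type I receptor Bmpr1a, 3 target genes (Id1, Id2 and Id3) and 2 inhibitors (Smad6 and Nog). They were taken as every probe whose name, older name or RefSeq accession on the array is one of these genes. That gave 14 probes of 28845 for 10 genes of 24886 genes and unnamed transcripts. The array carries Id1, Id2, Id3 and Smad6 under the older names Idb1, Idb2, Idb3 and Madh6. Of these, 6 members had 1 probe and 4 had 2 (Bmp7, Bmpr1a, Id1, Id2), where the brighter probe stood for the gene.

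RNA came from mouse embryonic stem cells and from embryoid bodies, aggregates in which stem cells differentiate in culture. The 4 populations were Rex1-positive undifferentiated cells of day 0, early mesoderm positive for Bra and cardiac mesoderm positive for Flk1, both of day 4.5, and cardiac progenitors of day 7.5 that were positive for Nkx2.5. Rex1 is the product of Zfp42, Bra (Brachyury) of T, Flk1 of Kdr and Nkx2.5 of Nkx2-5. The data are 5 two-colour oligonucleotide arrays, each with RNA of a pair of populations. On 3 arrays Bra, Flk1 or Nkx2.5 RNA was set over Rex1 RNA, and on the other two Nkx2.5 RNA was set over Bra or Flk1 RNA. The sources used here do not name the stem cell line, its culture, the way cells were isolated or the number of cells pooled.

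BMP ligands are secreted dimers that bring together type I and type II serine/threonine kinase receptors, which phosphorylate Smad1, Smad5 and Smad9. These enter the nucleus with Smad4 and switch on target genes, among them the Id genes, whose products bind and block basic helix-loop-helix transcription factors. Noggin, the product of Nog, binds ligands outside the cell, and Smad6, itself a target of the pathway, blocks the signal inside it. In the embryo BMP signals help to form mesoderm and the heart, and in stem cell cultures BMP4 acts through Id proteins to hold back neural differentiation.

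No sample was replicated and no dye was exchanged, so the spread between samples is unknown. No test was made and no p-value is given, since what 5 arrays leave over after fitting 4 populations covers hybridisation and dye error only. Each comparison was instead read in 2 ways, both as log2 ratios. The first reading is the array of the 2 populations, and the second comes from the other arrays that join them. Flk1 and Bra never shared an array, so their first reading runs through Rex1 and their second through Nkx2.5. A call of higher or lower needed at least 2-fold in both readings, in 1 direction, and the brighter population well above background on each of its arrays. Well above background means brighter than the percentile 95 of 96 negative control spots. From the differences between readings, the error of 1 array averaged 0.24 (log2). It is called the hybridisation error here, but it also holds dye bias and leaves out the spread between cultures. Rex1 RNA was always in the Cy3 channel and Nkx2.5 RNA always in Cy5. On the array of this pair alone, dye and population cannot be told apart. A dye effect equal on all arrays enters the first reading of this pair 1 time and the second 2 times. Agreement of these readings therefore does not guard against it. The reading through Bra or through Flk1 minus the direct one would equal that effect plus error. Over the members the root-mean-square of this difference was 0.212 through Bra and 0.265 through Flk1. The part of dye was not tested.

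Of the genes that define the populations, Zfp42 was lower than in Rex1 cells in all 3 other populations, with readings of -1.74 and -1.19 in Bra, -1.76 and -1.18 in Flk1 and -1.68 and -2.25 in Nkx2.5 cells. The remaining 3 ran in the labelled direction without reaching 2-fold in both readings: T read 1.07 and 0.73 in Bra over Rex1, Kdr 0.68 and 0.64 in Flk1 over Rex1, and Nkx2-5 0.53 and 0.91 in Nkx2.5 over Rex1. Median Cy3 signal was 0.308 to 0.345 of background where the channel held Rex1 RNA and 0.993 and 0.613 where it held Bra or Flk1 RNA. All members but Bmp5 were well above background in all 10 channels, and none of their spots was marked Bad by the scanner.

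Among the ligands, Bmp4 differed most. It was low in both day 4.5 mesoderm populations and high in both Rex1 stem cells and Nkx2.5 progenitors. Its normalised log2 intensity was 12.48, 12.61 and 12.63 in the 3 Rex1 channels, 11.32 and 11.87 in the Bra channels, 11.57 and 11.55 in the Flk1 channels, and 12.58, 12.66 and 12.50 in the Nkx2.5 channels. The Bra and Flk1 values overlapped each other, the Rex1 and Nkx2.5 values overlapped each other, and the 2 sets did not overlap. Since each population was assayed in bulk, fewer cells with a transcript and less RNA per cell cannot be told apart here.

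In Flk1 over Rex1, Bmp4 read -1.04 directly and -1.23 through Nkx2.5, that is 2.06-fold and 2.34-fold lower in Flk1 cells. It was the only call among the 10 members in any of the 6 comparisons, where 0.249% of all genes were called lower in Flk1 over Rex1. Bra over Rex1 read -1.17 and -0.83, so the second reading fell short of 2-fold. Nkx2.5 over Bra read 0.71 and 1.04, and Nkx2.5 over Flk1 read 1.10 and 0.92. These 4 comparisons share arrays and are not independent. Nkx2.5 over Rex1, at -0.13 and -0.20, lay within the hybridisation error, and in Flk1 over Bra the readings of 0.12 and -0.40 disagreed in sign.

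The call rests close to the limit of 2-fold. Under alternatives that keep a background subtraction, the first reading in Flk1 over Rex1 ranged from -1.07 to -0.91 and the second from -1.24 to -0.97. In the values the authors deposited, without the loess curve, it was -0.91 and -0.97, which is no longer a call. With no background subtraction it was -0.40 and -0.50.

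**Figure D1:**
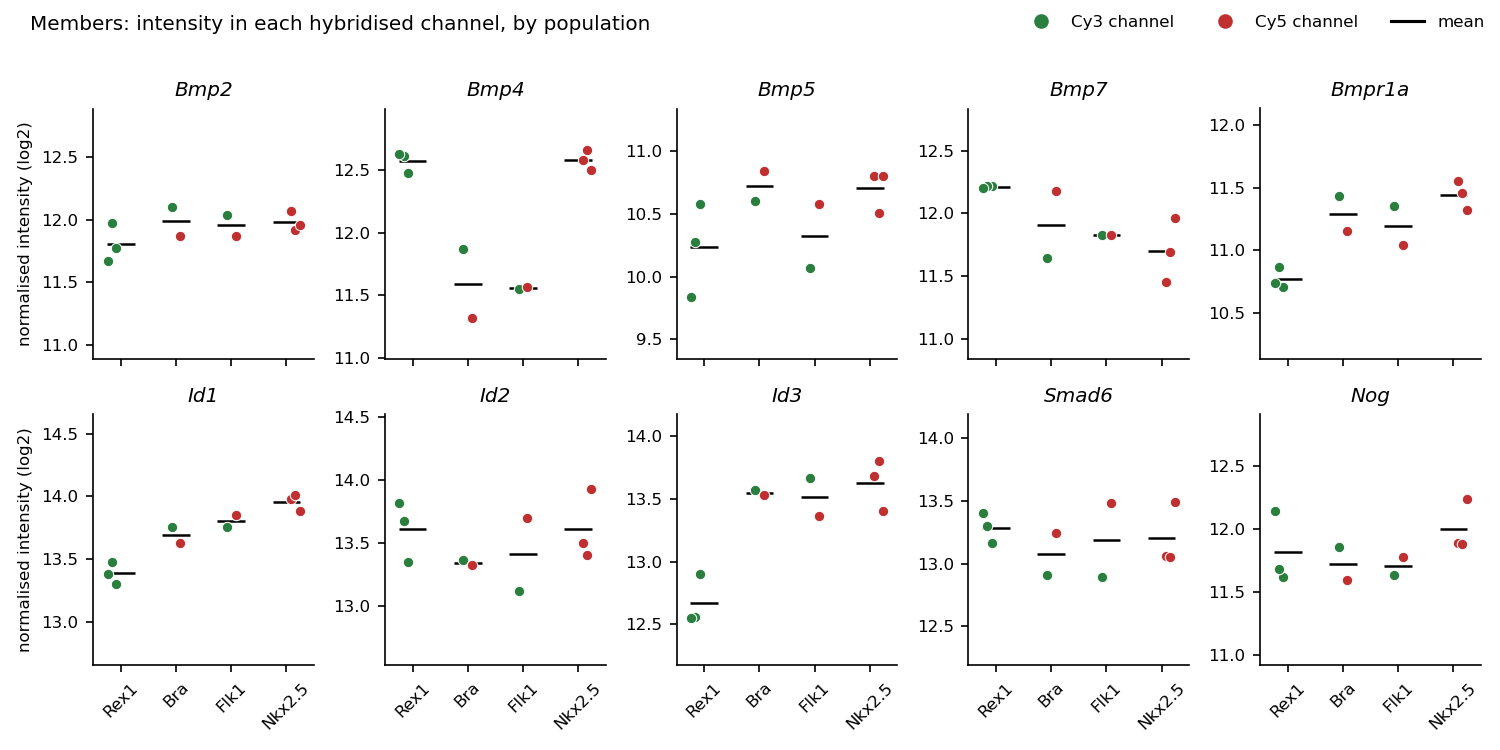
Normalised log2 intensity of the probe standing for each member in every hybridised channel, by population. Each point is 1 channel, coloured by dye (Cy3 green, Cy5 red), and each bar is the mean of the points. Every panel spans 2 log2 units, so spreads can be compared between genes but levels cannot. Bmp4 lies lower in the 2 Bra and 2 Flk1 channels than in the others, and Id3 lies lower in the 3 Rex1 channels.

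The region before the Bmp4 start site is shown because Bmp4 is the member with the widest range. It is the 250 bases upstream of the RefSeq start on the minus strand, chr14:46390670-46390919 of GRCm38.p6, with 63.2% G and C:
Bmp4: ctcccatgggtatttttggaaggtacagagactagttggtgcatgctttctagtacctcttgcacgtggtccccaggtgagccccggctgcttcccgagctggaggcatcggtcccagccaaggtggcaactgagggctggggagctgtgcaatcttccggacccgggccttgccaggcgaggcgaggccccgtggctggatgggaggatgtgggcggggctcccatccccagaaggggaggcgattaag
Windows from 250 bases before to 50 after the start were searched on both strands for 3 motifs. These were GTCTAGAC, a palindrome bound by Smads, GGCGCC, a GC-rich element reported for Smad1, and TATAA, the core of the TATA box. None of the 3 motifs contains another. RefSeq promoters were found for 6 of the 10 members, not for Bmp2, Bmp7, Id1 or Nog, and the Bmp4 window held none of the 3 motifs.

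Bmp5, a ligand of the Bmp7 subgroup, was dim. Its log2 intensity was 10.58, 10.28 and 9.84 in Rex1 cells, 10.84 and 10.60 in Bra cells, 10.58 and 10.07 in Flk1 cells, and 10.80, 10.51 and 10.80 in Nkx2.5 cells. The lowest of these, in Rex1 cells on the array with Nkx2.5, was not well above background, and Rex1 and Nkx2.5 values overlapped. Nkx2.5 over Rex1 read 0.96 and 0.60, which passed 1.5-fold in both readings but not 2-fold. The pass at 1.5-fold was lost with median centring in place of loess (0.91 and 0.52), with loess within blocks of spots (0.89 and 0.50), in the deposited table (0.66 and 0.37) and with no background subtraction (0.19 and 0.20). The other comparisons with Rex1 read 0.26 and 0.76 for Bra and 0.30 and 0.52 for Flk1.

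Bmp2, which with Bmp4 forms a subgroup of close relatives, had no reading above 0.40 in size in any comparison with Rex1. Its log2 intensity ran from 11.67 to 11.97 in Rex1 cells, from 11.87 to 12.10 in Bra cells, from 11.87 to 12.04 in Flk1 cells and from 11.92 to 12.07 in Nkx2.5 cells, so all 4 populations overlapped. Its readings had the same sign in 1 of 6 comparisons.

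Bmp7 was 12.22, 12.22 and 12.20 in the Rex1 channels, above every other channel. The Bra channels read 12.18 and 11.64, the Flk1 channels 11.83 and 11.83, and the Nkx2.5 channels 11.45, 11.69 and 11.96. The differences were small: Nkx2.5 over Rex1 read -0.25 and -0.38, and Flk1 over Rex1 read -0.39 and -0.11. The second Bmp7 probe did not share this direction, with array ratios of 0.29, 0.21 and 0.22 for Bra, Flk1 and Nkx2.5 over Rex1. In Nkx2.5 over Bra and over Flk1 it read 0.05 and 0.77, against -0.20 and -0.14 on the brighter probe. The second probe was well above background in 8 of 10 channels, but not in Rex1 cells on the arrays with Bra and with Flk1.

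Bmpr1a, the type I receptor for BMP2 and BMP4 that early mesoderm formation requires, was lowest in Rex1 cells. Its log2 intensity was 10.71, 10.87 and 10.74 in Rex1 cells, 11.15 and 11.43 in Bra cells, 11.04 and 11.35 in Flk1 cells, and 11.55, 11.46 and 11.32 in Nkx2.5 cells. The Rex1 channels did not overlap those of any other population, and the other three overlapped. The readings against Rex1 were 0.44 and 0.46 in Bra, 0.17 and 0.47 in Flk1, and 0.58 and 0.42 in Nkx2.5 cells, none of them past 1.5-fold in both. The second Bmpr1a probe gave 0.19, 0.38 and 0.70 on the same 3 arrays, but was not well above background in any Rex1 channel.

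Id3 was higher in all 3 differentiated populations than in Rex1 cells at the 1.5-fold level, with small differences among those populations. Its log2 intensity was 12.90, 12.56 and 12.55 in Rex1 cells, 13.53 and 13.57 in Bra cells, 13.36 and 13.67 in Flk1 cells, and 13.68, 13.80 and 13.40 in Nkx2.5 cells. The Rex1 channels lay below all 7 others with no overlap, and the other three populations overlapped. Against Rex1 the readings were 0.63 and 0.75 in Bra, 0.79 and 0.73 in Flk1, and 0.86 and 0.83 in Nkx2.5 cells, none of which reached 2-fold. No reading between the differentiated populations exceeded 0.22 in size. With no background subtraction the first readings against Rex1 were 0.39, 0.46 and 0.49, and in the deposited table they were 0.36, 0.66 and 0.73, with the direction kept. With no background subtraction none of the 3 comparisons passed 1.5-fold in both readings, and in the deposited table only Flk1 over Rex1 did. Bra over Rex1 also fell short with median centring (0.58 and 0.72).

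Id1 ran the same way at a smaller size on its brighter probe. That probe read 13.30, 13.48 and 13.38 in Rex1 cells, 13.63 and 13.76 in Bra cells, 13.85 and 13.76 in Flk1 cells, and 13.98, 14.01 and 13.88 in Nkx2.5 cells. The Rex1 channels lay lowest and the Nkx2.5 channels highest, without overlap with Bra and Flk1, whose values overlapped. Nkx2.5 over Rex1 read 0.50 and 0.58, Bra over Rex1 0.33 and 0.28, and Flk1 over Rex1 0.37 and 0.26. The second Id1 probe, also above background in all 10 channels, went the other way in Nkx2.5 over Rex1 at -0.34. It also did so in Nkx2.5 over Bra (-0.22 against 0.22) and over Flk1 (-0.15 against 0.24). In Bra over Rex1 it read -0.04, and in Flk1 over Rex1 it kept the direction at 0.11. The direction of Id1 in the comparisons with Nkx2.5 therefore depends on the probe.

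Id2 showed no such difference from Rex1 cells on either probe. Its brighter probe ranged from 13.35 to 13.82 in Rex1 cells, 13.32 to 13.36 in Bra cells, 13.12 to 13.70 in Flk1 cells and 13.40 to 13.93 in Nkx2.5 cells. Apart from Bra against Nkx2.5, all pairs of populations overlapped. Against Rex1 the readings were -0.03 and -0.04 in Bra, 0.03 and -0.18 in Flk1, and 0.10 and 0.21 in Nkx2.5 cells, all within the hybridisation error of 1 array. On those 3 arrays the second Id2 probe read -0.06, 0.05 and 0.10. In Nkx2.5 over Bra and over Flk1 it read 0.19 and 0.49, against 0.14 and 0.28 on the brighter probe.

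The sequences of Id3 and Id2 are shown to set the Id gene with the widest range beside the one with the narrowest, with motifs in capitals. The Id3 stretch is the 250 bases before the start on the plus strand, chr4:136143572-136143821, with TATAA from base -29. The Id2 stretch is 60 bases on the minus strand, chr12:25096283-25096342, with GGCGCC from base -231, both in GRCm38.p6:
Id3: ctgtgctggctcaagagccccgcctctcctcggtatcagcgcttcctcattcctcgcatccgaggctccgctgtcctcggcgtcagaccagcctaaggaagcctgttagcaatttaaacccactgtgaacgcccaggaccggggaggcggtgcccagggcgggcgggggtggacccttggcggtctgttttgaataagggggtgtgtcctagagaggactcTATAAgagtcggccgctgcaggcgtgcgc
Id2: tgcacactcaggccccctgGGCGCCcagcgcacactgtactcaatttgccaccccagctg
TATAA was present in 24.9% of 32851 RefSeq promoter windows, and among the 6 members with a promoter in Id3 alone. GGCGCC was present in 11.9%, and among those 6 members in Id2 and Bmpr1a. Id1 was not searched. These are matches of letters, not sites at which a factor was measured.

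Neither inhibitor passed 1.5-fold in any comparison. Smad6 was bright, from 13.16 to 13.40 in Rex1 cells, 12.91 to 13.24 in Bra cells, 12.89 to 13.48 in Flk1 cells and 13.05 to 13.49 in Nkx2.5 cells, and all populations overlapped. Its array ratios lay between 0.09 and 0.19 on all 5 arrays. Nog ranged from 11.62 to 12.14 in Rex1 cells, 11.59 to 11.86 in Bra cells, 11.63 to 11.78 in Flk1 cells and 11.88 to 12.24 in Nkx2.5 cells. The Nkx2.5 channels lay above those of Bra and Flk1 without overlap, but no Nog array ratio exceeded 0.26.

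The Smad6 start is shown because, of the 6 promoters, it alone held the Smad palindrome, a sequence found in 70 of all 32851 windows (0.213%). It runs from base -100 to base 4 after the start on the minus strand, chr9:64022056-64022159 of GRCm38.p6, with the palindrome in capitals:
Smad6: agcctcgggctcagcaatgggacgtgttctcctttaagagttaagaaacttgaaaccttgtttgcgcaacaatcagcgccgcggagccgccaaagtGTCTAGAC

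**Figure D2:**
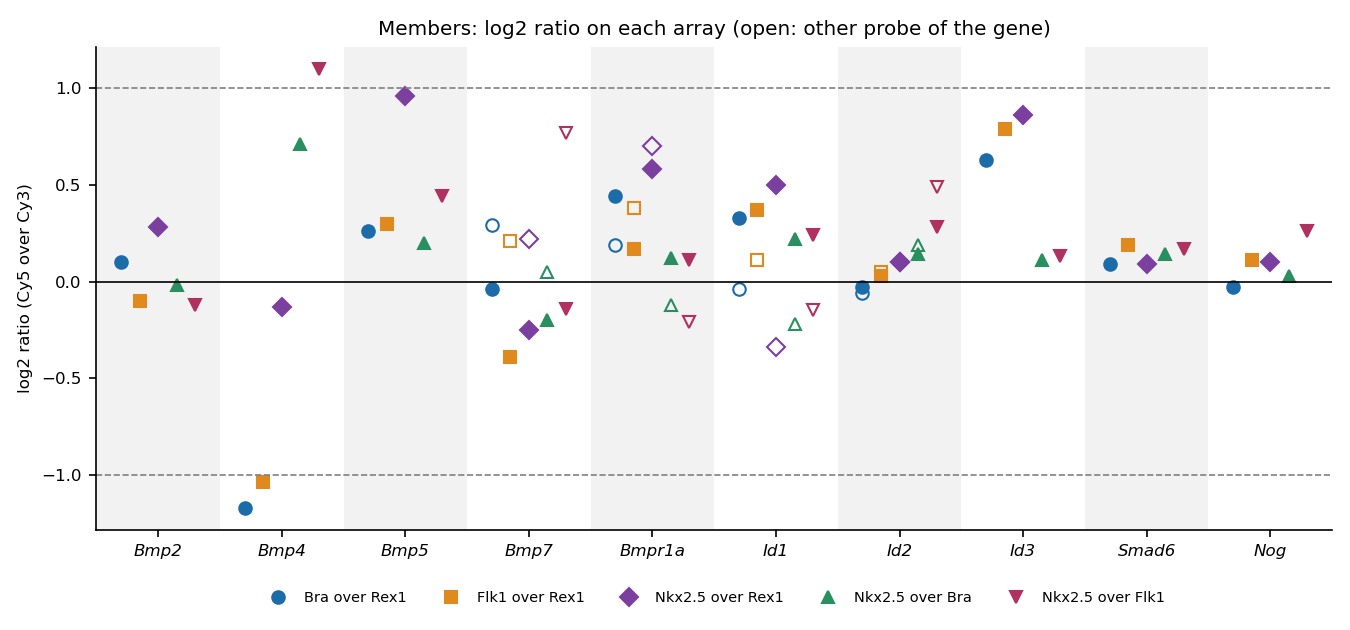
Log2 ratio (Cy5 over Cy3) of each member on each of the 5 arrays, 1 symbol per array. Filled symbols are the probe standing for the gene, open symbols its other probe, and dashed lines mark 2-fold. Bmp4 is the only member past a dashed line, on the Bra over Rex1, Flk1 over Rex1 and Nkx2.5 over Flk1 arrays.

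Set against the whole array, the members held 1 call, and no call at 2-fold in the other 5 comparisons. The background there was 1.05% higher and 0.221% lower for Bra over Rex1, and 2.35% and 0.667% for Nkx2.5 over Rex1. It was 0.277% and 0.0603% for Nkx2.5 over Bra, 0.301% and 0.0844% for Nkx2.5 over Flk1, and 0.0201% and 0.00402% for Flk1 over Bra. Higher calls in Flk1 over Rex1 made up 0.599%. The split of calls depends on the normalisation: with loess fitted within each block of spots, Bra over Rex1 had 37 genes higher and 57 lower in place of 261 and 55. Flk1 over Rex1 then had 39 and 58 in place of 149 and 62, and Nkx2.5 over Rex1 174 and 124 in place of 586 and 166.

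At 1.5-fold in both readings, Id3 was higher and Bmp4 lower in Bra over Rex1, where 3.02% and 1.18% of all genes passed. The same was true in Flk1 over Rex1, with 2.19% and 1.15%. Bmp5 and Id3 were higher in Nkx2.5 over Rex1 (5.63% of all genes, with 2.64% lower). Bmp4 was higher in Nkx2.5 over Bra, where 0.751% were higher and 0.462% lower. It was also higher in Nkx2.5 over Flk1, against 1.08% higher and 0.587% lower. No member passed in Flk1 over Bra, where 0.137% were higher and 0.173% lower. The remaining 7 members passed in no comparison. Of these 8 passes, 7 held with loess within blocks, 6 with median centring, 4 in the deposited table and 0 with no background subtraction, settings combined with the 1.5-fold rule after the data were seen. Bmp4 in Nkx2.5 over Bra was among those lost in the deposited table (0.49 and 0.80).

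Channel values that do not overlap were common on these arrays and so add little. In the number of members, 4 were higher in Bra than in Rex1 cells without overlap (Bmp5, Bmpr1a, Id1, Id3), against 15.2% of all genes, and 2 were lower (Bmp4, Bmp7), against 14.2%. In Flk1 cells 3 were higher (Bmpr1a, Id1, Id3; 14.0%) and 2 lower (Bmp4, Bmp7; 14.7%). In Nkx2.5 cells the same 3 were higher (15.9%) and Bmp7 lower (14.9%). In Nkx2.5 over Bra 4 were higher (Bmp4, Id1, Id2, Nog; 8.34%) and none lower (10.5%). In Nkx2.5 over Flk1 3 were higher (Bmp4, Id1, Nog; 8.74%) and none lower (9.33%). Bmp5 was lower in Flk1 over Bra (11.7%).

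The median of the 10 members lay between 0.05 and 0.21 in the first readings, where the median of all genes was at most 0.01 in size. In Nkx2.5 over Rex1 the member median was 0.19 and 0.25 in the 2 readings. In Flk1 over Bra it was 0.05 and -0.04.

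A value for each population was fitted from all 5 arrays by least squares, and the range over the 4 populations was compared with that of 18412 genes above background in all channels. Bmp4 had a range of 1.15 (2.22-fold), at percentile 98.2, in the order Rex1, Nkx2.5, Bra, Flk1. Its fit left a residual SD of 0.19, so the order of Rex1 over Nkx2.5 (0.16 apart) and of Bra over Flk1 is not settled. Id3 had a range of 0.85 (1.80-fold), at percentile 94.7, with a residual SD of 0.07. Rex1 was lowest, 0.69 below Bra, the next population.

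Bmp5 followed with a range of 0.78, at percentile 93.3, although 1 of its channels was dim. Id1 had 0.54 on its brighter probe and Bmpr1a 0.50, at percentiles 83.4 and 80.5. Bmp7 had 0.31, close to the median of all genes of 0.28. The other four lay below that median: Id2 at 0.20, Smad6 at 0.19, Nog at 0.15 and Bmp2 at 0.11. Leaving out each array in turn gave a Bmp4 range of 1.06 to 1.34 and an Id3 range of 0.82 to 0.88. Rex1 was highest for Bmp4 and lowest for Id3 each time. The small ranges were less stable: Bmp2 ran from 0.10 to 0.33, with 0.33 without the Flk1 over Rex1 array and 0.31 without the Nkx2.5 over Flk1 array. Smad6 ran from 0.17 to 0.29, with 0.29 without Nkx2.5 over Rex1. Nog ran from 0.11 to 0.26, with 0.26 without Flk1 over Rex1, and Id2 from 0.14 to 0.28. The median of all genes was not recomputed with an array left out. Whether Bmp2 and Smad6 then stay below it was not tested.

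**Figure D3:**
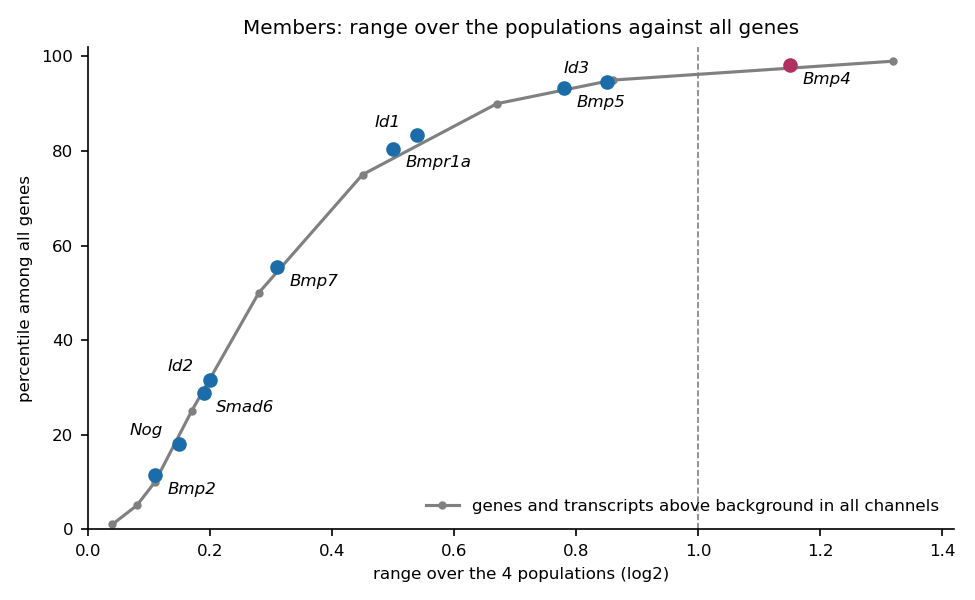
Range of each member over the 4 populations (log2, horizontal) against its percentile among 18412 genes and transcripts above background in all channels (vertical). The grey line joins percentiles 1 to 99 of all those genes, and the dashed line marks 2-fold. Bmp4 lies beyond 2-fold at percentile 98.2, and Id2, Smad6, Nog and Bmp2 lie in the lower part.

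The rest of the pathway was followed in 7 lists of 62 genes, of which 57 were on the array. Of these, 3 were higher and 0 lower in Bra over Rex1, 1 and 0 in Flk1 over Rex1, and 3 and 0 in Nkx2.5 over Rex1. Over all genes 1.05% were higher and 0.221% lower in Bra over Rex1. The shares were 0.599% and 0.249% in Flk1 over Rex1, and 2.35% and 0.667% in Nkx2.5 over Rex1. In Nkx2.5 over Bra and over Flk1, 0 of the 57 were higher and 1 lower in each, against 0.0603% and 0.0844% of all genes lower. None of the 57 passed in Flk1 over Bra. Of these 9 calls 5 held with loess fitted within blocks, 2 in the deposited table and 0 with no background subtraction. The deposited values gave no reading for Acvr1 in its called comparisons, and its calls count there as not held.

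Fst, which encodes follistatin, an extracellular antagonist that binds activin and some BMPs, ran opposite to Bmp4. It was higher in Bra over Rex1 (1.89 and 1.11) and Flk1 over Rex1 (1.90 and 1.58). It was lower in Nkx2.5 over Bra (-1.15 and -1.93) and Nkx2.5 over Flk1 (-1.62 and -1.93). With loess within blocks Bra over Rex1 read 1.71 and 0.89, no longer a call, and the other three calls of Fst held. Cer1, a secreted antagonist of Nodal, BMP and Wnt, was higher in Bra over Rex1 at 1.21 in both readings. It was above background in 2 of 3 Rex1 channels. Its call held with loess within blocks (1.38 and 1.21). The call was lost in the deposited table (0.85 and 0.77) and with no background subtraction (0.36 and 0.44). No other of the 15 antagonists and modulators measured was called.

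Of 9 other ligands measured, Gdf7 was higher in Nkx2.5 over Rex1 (1.07 and 1.30). With loess within blocks it read 0.14 and -0.13, so its direction depends on the normalisation, as it does with no background subtraction (-0.11 and -0.22). Of 8 other receptors and co-receptors, Acvr1, a type I receptor, was called in Bra and in Nkx2.5 over Rex1. It was not well above background in Rex1 cells on any array, which gives at least 1.77-fold in Bra and at least 2.61-fold in Nkx2.5 cells. With loess within blocks the readings in Bra over Rex1 were 1.60 and 0.95, which is not a call. With no background subtraction they were 0.24 and 0.01, and those in Nkx2.5 over Rex1 were 0.18 and 0.41. The bounds thus hold only with the background correction used. Such a bound sets the mean intensity of the brighter population against the dimmest signal counted as above background, and is open to dye bias.

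Among the Smads and their cofactors 0 of 6 passed. Smad5, which carries the signal, read 0.53 and 0.61 in Bra over Rex1, and Smad9, its relative, -0.34 and -0.41 in Nkx2.5 over Rex1. Of 7 other intracellular inhibitors, Smurf1, a ubiquitin ligase that removes Smads and receptors, was higher in Nkx2.5 over Rex1 (1.09 and 1.57), although it was above background in 2 of 3 Rex1 channels. It read 0.50 and 0.59 with loess within blocks and -0.01 and -0.05 with no background subtraction.

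Among other target genes 0 of 9 passed. Atoh8 read -1.10 and -0.64 in Nkx2.5 over Rex1, and Msx2, a homeobox gene, 0.51 and 0.87. Of the 3 E proteins that Id proteins bind, none passed. Tcf3 read 0.20 and 0.16 in Nkx2.5 over Rex1, and the readings of Tcf4, dim in Rex1 cells, were 0.22 and 1.66.

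**Figure D4:**
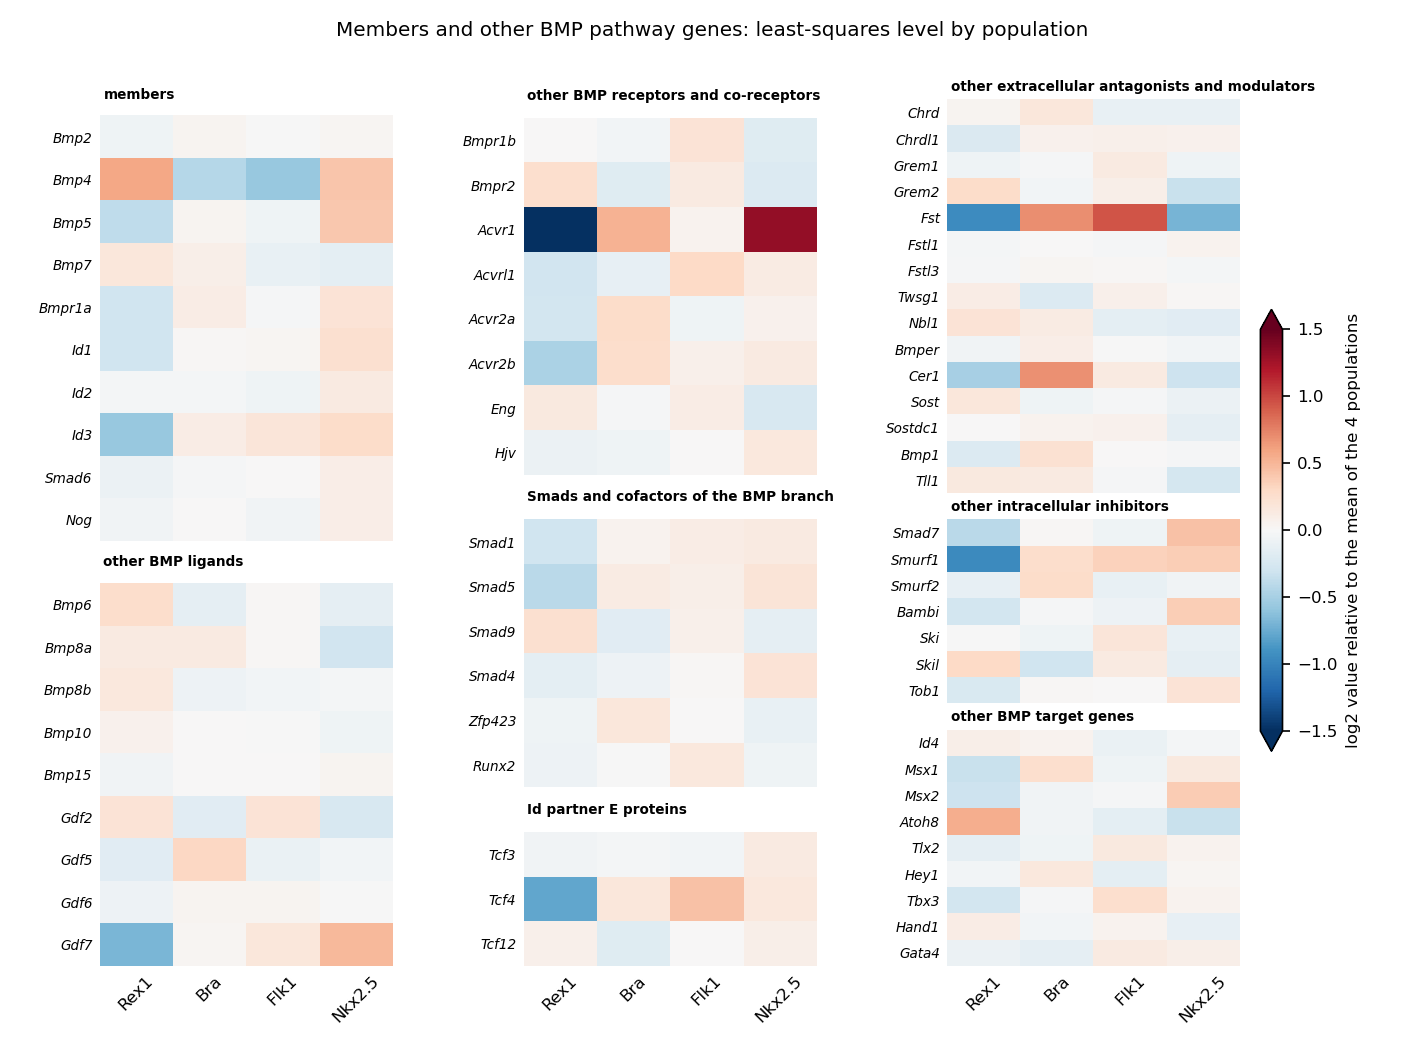
Fitted level of the members and of the 57 other pathway genes measured (rows, grouped by role) in each population (columns), as log2 relative to the mean of the 4 populations. Red is above and blue below that mean. Bmp4 is high in Rex1 and Nkx2.5 columns, Fst in Bra and Flk1 columns, and the Smads, targets and E proteins held no call.

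Markers of other cell types moved between the same populations, and their part in the Bmp4 and Id3 values was not tested. Of 9 primitive streak markers 2 were higher in Bra and 2 in Flk1 over Rex1 (1.05% and 0.599% of all genes). In Nkx2.5 over Bra 3 of them were lower (0.0603% of all genes). The mean log2 intensity of that list was 11.38 to 11.91 in Rex1, 13.02 to 13.03 in Bra, 12.32 to 12.40 in Flk1 and 11.64 to 12.32 in Nkx2.5 channels, with Sp5 dim in Rex1. Of 15 pluripotency markers 4, 5 and 7 were lower in Bra, Flk1 and Nkx2.5 over Rex1 (0.221%, 0.249% and 0.667% of all genes). Their mean was 13.08 to 13.18 in Rex1, 12.28 in Bra, 12.23 to 12.26 in Flk1 and 11.80 to 11.96 in Nkx2.5 cells. The mean of this list was lowest in the Nkx2.5 cells.

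In Nkx2.5 over Rex1, 5 of 10 cardiomyocyte, 3 of 10 endoderm and 2 of 5 primitive blood markers were higher (2.35% of all genes). In Flk1 over Rex1, 2 of 10 endothelial markers were higher (0.599% of all genes). The cardiomyocyte mean was 11.53 to 11.93 in Rex1, 11.62 to 11.80 in Bra, 11.48 to 12.11 in Flk1 and 12.93 to 13.08 in Nkx2.5 channels, with Nppa dim in Bra and Flk1. The blood mean was 11.39 to 12.86 in Rex1, 11.55 to 12.69 in Bra, 11.66 to 13.03 in Flk1 and 13.73 to 13.85 in Nkx2.5 channels. The endoderm mean was 11.32 to 11.58 in Rex1, 11.55 to 11.80 in Bra, 11.85 to 11.87 in Flk1 and 12.25 to 12.36 in Nkx2.5 channels, with Afp and Apob dim in Rex1. The endothelial mean was 10.67 to 10.87 in Rex1, 10.59 to 10.99 in Bra, 11.29 to 11.61 in Flk1 and 11.35 to 11.64 in Nkx2.5 channels, with Tie1 dim in Bra. None of 6 neural ectoderm markers was called in any comparison.

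Bmp4 had the largest SD over the 5 arrays, 1.01, followed by Id3 at 0.36. Of 12471 named genes well above background in all channels of at least 4 arrays, Sfn lay nearest to its 5 ratios, at a root-mean-square distance of 0.296 (log2). Sfn read -1.22 in Bra over Rex1, -1.13 in Flk1 over Rex1, -0.57 in Nkx2.5 over Rex1, 0.27 in Nkx2.5 over Bra and 0.89 in Nkx2.5 over Flk1. Ddc, at 0.299, read -1.34 in Bra over Rex1, -0.91 in Flk1 over Rex1 and 1.26 in Nkx2.5 over Bra. Next were Stac2 at 0.383, Mthfd2 at 0.391 and Tfpi at 0.417. These distances describe 5 arrays that share 4 RNA populations.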

How the data were processed

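Expression was measured on 5 two-colour arrays from 4 marker-positive populations. Of their 6 pairs 5 were hybridised, on 1 array each. Per the labels' protocols, RNA was purified on columns and amplified with amino allyl nucleotides, to which Cy3 or Cy5 was then coupled. Ratios run Cy5 over Cy3. The sources used here name no scanner software or genome build.

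Per the file headers, the scanner tables hold for either channel an intensity, a median signal and its background. Checked on the files, the signal already had the background of its block subtracted (48 blocks of 625 spots). The deposited ratio is the quotient of the channels. The deposited log2 table equals the log2 scanner ratio minus 1 constant per array, within 1e-06, so scale and direction are known. Its column medians were -0.0846, -0.0599, -0.0578, -0.00732 and -0.0728 in the array order of the report.

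Signal plus background was corrected with normexp (offset 50) and normalised by loess within arrays, with limma 3.58.1 (R 4.3.3) and no weight on control spots. Channel intensities were then scaled between arrays with Aquantile. Tables were made in Python 3.11.15. The steps were tested on simulated data. Probes were named through the RefSeq gene table of GRCm38.p6, used for names alone: 8056 by accession, 5228 by symbol and 5063 by synonym, with 574 file names kept and 9924 probes unnamed. The second reading of Nkx2.5 over Rex1 averages the route through Bra and the route through Flk1. Spots marked Bad were kept, and alternatives are listed in the closing section.

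The members, lists and rules were chosen with earlier results of these data known. Named were all members, the called genes of each pathway list or, with none called, the 2 with the largest smaller reading, the genes that define the populations and the 5 genes nearest to the member with the largest SD. One listed marker is not reported here and was left out of its list. The number of arrays limits the precision.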

Additional observations from a re-analysis of the deposited data

Results flagged for a closer look

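One probe outside the members carried signal. It has no gene name in the files, but its description there names Idb2, the older name of Id2, and the rule for members did not take it. It was well above background in 9 of 10 channels. Its array ratios were -0.24 in Bra over Rex1, 0.37 in Flk1 over Rex1, -0.22 in Nkx2.5 over Rex1, -0.18 in Nkx2.5 over Bra and -0.12 in Nkx2.5 over Flk1, none of them 2-fold. The ratios of both named Id2 probes also stayed under 2-fold on every array.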

How the results depend on the processing

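The number of members past the rule was 0 in Bra over Rex1, 1 with the direct array alone (Bmp4) and 2 at 1.5-fold (Bmp4, Id3). In Flk1 over Rex1 it was 1, with 0 in the deposited table, 0 with median centring in place of loess, 0 with no background subtraction and 2 at 1.5-fold (Bmp4, Id3). In Nkx2.5 over Bra it was 0, and 1 at 1.5-fold. In Nkx2.5 over Flk1 it was 0, with 1 for the direct array alone and 1 at 1.5-fold. In Nkx2.5 over Rex1 it was 0, and 2 at 1.5-fold. The number with a range of at least 1 over the populations was 1, and 0 in the deposited table and with no background subtraction. Leaving out each array in turn gave 1 each time. The cause of these differences was not tested. Of 470 recomputed single values 424 stayed within the hybridisation error of the original and 46 moved by more, 23 of these without background subtraction, 13 in the deposited table, 7 with the median of a gene's probes and 3 with loess within blocks. The 60 values with Bad spots left out could not move, since no member spot was marked Bad. With the median of probes, the values of the 6 members with 1 probe could not move either. The called value kept its sign. Among uncalled values whose readings shared a sign, 5 turned in both readings, all 0.29 or less in size: Bmp7 in Bra over Rex1 with the median of probes (0.13 and 0.06) and with loess within blocks (0.01 and 0.09), Id2 in Nkx2.5 over Rex1 in the deposited table (-0.06 and -0.06) and with no background subtraction (-0.01 and -0.05), and Smad6 in Nkx2.5 over Rex1 with no background subtraction (-0.05 and -0.02). With no background subtraction 0 genes of the whole array passed in Bra over Rex1 and 0 in Flk1 over Rex1. With both populations required above background, higher calls in Bra over Rex1 numbered 30 in place of 261. No paired analysis was possible because none of the 5 pairs of populations hybridised was on more than 1 array. Dim signal in the Cy3 channel of Rex1 RNA limits Bmp5 and the second probes of Bmp7 and Bmpr1a.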
